A study of Mus musculus with 4 samples.

Results

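*Twist1*, *Twist2*, the E-protein genes *Tcf3*, *Tcf4* and *Tcf12*, the inhibitor genes *Id1*, *Id2*, *Id3* and *Id4*, and *Hand2* were followed in the frontal and the parietal bone, in wild-type mice and in *Twist1*+/- mice. These 10 genes were chosen by name, as a transcription factor network around *Twist1*, and all 10 are among the 23946 genes measured. Of these, 9 reached 1 FPKM in at least 1 library. *Hand2* was listed at 0 in 3 libraries and at 0.0125 FPKM in the other, *Twist1*+/- frontal bone, so no fold change is given for it. In frontal bone, *Twist1* was 1.94-fold lower in the *Twist1*+/- library and the 3 E-protein genes differed by at most 1.14-fold. In parietal bone *Twist1* differed by 1.04-fold between the genotypes, while *Id4* and *Id3* were higher and *Id2* and *Tcf12* lower in the library labelled *Twist1*+/-, each by 1.96- to 2.21-fold. Between these parietal libraries 20.2% of all genes at or above 1 FPKM in the higher library differed by more than 2-fold. With the median of genes of similar GC content subtracted, the parietal log2 ratio of *Twist1* went from -0.05 to -0.58. Those of *Id2* and *Tcf12* went from -1.07 and -0.99 to -0.51 and -0.52. Those of *Id4* and *Id3* went from 1.14 and 0.97 to 1.32 and 0.70. Each FPKM value is the single one given for its genotype and bone, so no spread between replicates can be set beside it.

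Twist1 is a basic helix-loop-helix transcription factor of the skeletal mesenchyme. It binds DNA as a dimer, for instance with an E-protein or with another class II factor, at E-boxes of the form CANNTG. E-proteins are broadly expressed partners for many tissue-restricted factors. Id proteins have the helix-loop-helix part but lack the basic region that contacts DNA, so that they hold E-proteins in dimers that cannot bind. Hand2 is another class II factor, known to compete with Twist1 for partners in the limb. In the skull, loss of one copy of *TWIST1* or of *TCF12* in humans is known to cause early fusion of the coronal suture, and Id genes are well known targets of BMP signalling.

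Bulk RNA-seq was done on 4 libraries, 1 for each genotype and bone, from C57BL/6J mice at postnatal day 21. The groups were wild-type frontal bone, wild-type parietal bone, *Twist1*+/- frontal bone and *Twist1*+/- parietal bone, and no group received a treatment. The study used 12 mice of each strain, and their division among the groups is not given. Neural crest gives rise to the frontal bone, and paraxial mesoderm to the parietal bone. *Twist1*+/- mice are heterozygous in every cell, so the loss is not restricted to bone, and which part of the gene the allele lacks is not given in the sources used here. The bones were sequenced with pericranium and dura mater, and the RNA therefore comes from a mixture of cells in which fewer cells of a type and less RNA per cell cannot be told apart. Values are FPKM, which scale fragments to transcript length and to the mapped fragments of the library. FPKM divides out transcript length, so levels may be compared between genes, but the values carry no count of reads, and the depth of each library cannot be read from them. Each condition has 1 value per gene, called a library here. Whether that value is an estimate over replicates or pooled mice is not given in the sources used here, and with 1 value per condition there is no test. A gene is described as past a threshold when its FPKM ratio exceeded 3-fold, or 2-fold where that is said, and the larger of both values reached 1 FPKM.

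The libraries differed in ways that reach beyond these genes. Osteoblast markers were abundant in all 4 libraries, with *Sp7* at 56.9 to 108.2 FPKM and *Bglap* at 5220 to 7982 FPKM. They did not move together, and *Sp7*, *Bglap* and *Sparc* were lowest in wild-type parietal bone. *Ibsp*, *Spp1* and *Phex* were highest there, at 869, 12239 and 75.7 FPKM. In wild-type frontal bone these were at 278, 4107 and 34.5 FPKM. *Col1a1* and *Col1a2* were however listed at 0 in all but wild-type parietal bone, so a value of 0 in these data cannot be read as absence. *Gapdh* lay between 158.0 and 170 FPKM in 3 libraries and at 215 FPKM in wild-type parietal bone. In the comparison of parietal bones, genes were put into 20 groups by GC content, and the group of lowest GC had a median log2 ratio of -0.58 and that of highest GC 0.61, against -0.01 and 0.08 in the comparison of frontal bones. Between the *Twist1*+/- bones these medians were -0.43 and 0.42. For the members, parietal genotype ratios and the main ratios between the *Twist1*+/- bones are therefore also given with the median of the GC group subtracted. Those of other genes and lists are given without it.

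The *Twist1* gene has 2 exons on the forward strand of chromosome 12 (mm9, 34642536 to 34644682). In frontal bone its level was 59.0 FPKM in the wild-type and 30.4 FPKM in the *Twist1*+/- library. In parietal bone it was 52.5 FPKM in the wild-type library and 50.7 FPKM in the one labelled *Twist1*+/-. One library, *Twist1*+/- frontal bone, was thus low and the other 3 lay between 50.7 and 59.0 FPKM. The frontal log2 ratio of -0.96 was lower than that of all but 2.22% of genes at or above 1 FPKM in the higher library. The parietal log2 ratio of -0.05 was near the middle of all genes, with 50.7% of them lower. *Twist1* has a GC content of 59.7%, and genes of similar GC content had a median parietal log2 ratio of 0.53. With this median subtracted the parietal log2 ratio of *Twist1* was -0.58, and the frontal one -0.98. *Twist1* does not by itself tell the 2 parietal libraries apart, and every genotype direction in parietal bone below rests on that label. Meningeal markers also differed between the frontal libraries. Of 10 such markers, 3 were past 3-fold lower in *Twist1*+/- frontal bone, among them *Ptgds* at 327 against 1975 FPKM, and none was listed at 0 in any library. Their sum was 2296 FPKM in wild-type frontal, 610 FPKM in *Twist1*+/- frontal, 1256 FPKM in wild-type parietal and 854 FPKM in labelled *Twist1*+/- parietal bone. Without *Igf2*, at 1127 FPKM in wild-type parietal bone, it was 2065, 396, 129 and 491 FPKM. Much of that remaining sum was *Ptgds*, at 1975, 327, 52.8 and 428 FPKM in the same order. The part of meningeal cells in the *Twist1* values was not tested.

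*Twist2*, the closest relative of *Twist1* and a regulator of dermis and of osteoblast maturation, lies on chromosome 1 of mm9 from 93698038 to 93744605, forward strand, with 2 exons. It was at 0.802 FPKM in wild-type frontal, 1.18 FPKM in *Twist1*+/- frontal, 2.60 FPKM in wild-type parietal and 3.37 FPKM in labelled *Twist1*+/- parietal bone. Both parietal libraries were above both frontal libraries. The parietal level was 3.24-fold the frontal level in wild-type mice and 2.85-fold in *Twist1*+/- mice. *Twist2* was the member with the largest bone difference in either genotype, and the only member past 3-fold in any comparison. Its level is low, and the wild-type ratio fell under 3-fold when 1 or 0.1 FPKM was added to both values or when libraries were scaled to *Gapdh*. Between genotypes *Twist2* was 1.47-fold higher in *Twist1*+/- frontal bone and 1.30-fold higher in labelled *Twist1*+/- parietal bone, and the parietal difference changed sign, to a log2 value of -0.13, with the GC median subtracted. *Twist1* remained far above *Twist2* in each library, by 73.6-fold in wild-type frontal, 25.7-fold in *Twist1*+/- frontal, 20.2-fold in wild-type parietal and 15.0-fold in labelled *Twist1*+/- parietal bone.

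**Figure D1:**
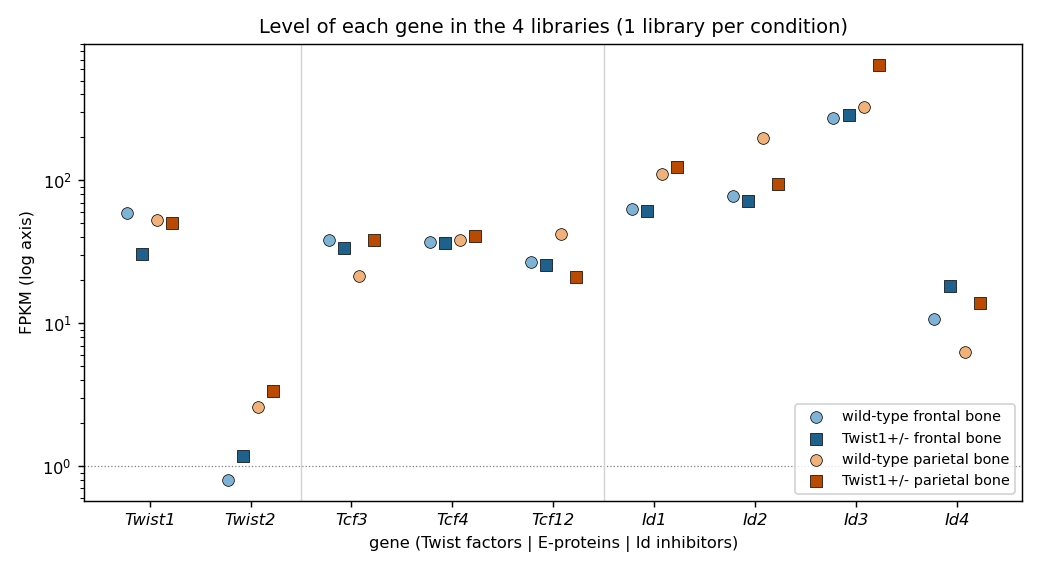
FPKM (vertical axis, logarithmic) of the 9 genes that reached 1 FPKM, each point being 1 library. Circles are wild-type and squares *Twist1*+/- libraries, blue for frontal and orange for parietal bone, and the dotted line marks 1 FPKM. *Twist1* is low in *Twist1*+/- frontal bone alone, at 30.4 FPKM, while *Id3* reaches 645 FPKM in labelled *Twist1*+/- parietal bone.

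Among the E-protein genes, *Tcf4* (E2-2, chromosome 18, 69503800 to 69847621, forward strand) was the most even. It was at 36.9 FPKM in wild-type frontal, 36.6 FPKM in *Twist1*+/- frontal, 38.0 FPKM in wild-type parietal and 40.6 FPKM in labelled *Twist1*+/- parietal bone, a spread of 1.11-fold between the lowest and the highest. *Tcf3* (E2A, which encodes E12 and E47 and is needed for B cell development, chromosome 10, 79872259 to 79896392, reverse strand) was at 38.4, 33.7, 21.6 and 38.5 FPKM in the same order. Wild-type parietal bone was the low library, and the other 3 lay close together. *Tcf12* (HEB, a partner of Twist1 at the coronal suture, chromosome 9, 71692059 to 71959626, reverse strand) was at 26.7, 25.5, 42.2 and 21.2 FPKM. Here wild-type parietal bone was the high library.

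The summed FPKM of the 3 E-protein genes hardly differed between libraries, at 102.0 in wild-type frontal, 95.8 in *Twist1*+/- frontal, 101.8 in wild-type parietal and 100.2 in labelled *Twist1*+/- parietal bone. The composition of that sum differed. *Tcf12* made up 41.5% of it in wild-type parietal bone and 21.2% in labelled *Twist1*+/- parietal bone, with 26.2% and 26.6% in the wild-type and *Twist1*+/- frontal libraries. *Tcf3* made up 21.2% in wild-type parietal bone and 35.2% to 38.4% in the other 3 libraries. The ratio of *Tcf3* to *Tcf12*, which does not depend on scaling between libraries, was 0.510 in wild-type parietal bone, against 1.44 in wild-type frontal, 1.32 in *Twist1*+/- frontal and 1.81 in labelled *Twist1*+/- parietal bone. *Tcf3* is GC-rich (61.0%) and *Tcf12* is not (45.1%), and the medians of their GC groups between the parietal libraries were 0.61 and -0.47 on the log2 scale. Against parietal log2 ratios of 0.84 for *Tcf3* and -0.99 for *Tcf12*, values of 0.22 and -0.52 were left once these medians were subtracted. *Tcf4*, with a GC content of 41.1%, went from 0.09 to 0.67. The part of GC content in these differences was not tested further. *Tcf7l1* and *Tcf7l2*, HMG-box genes of the Wnt pathway that share the older names Tcf3 and Tcf4, are listed as separate genes in these data.

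*Id1*, *Id2* and *Id3* were the most abundant members in each library, while *Id4* lay below *Twist1* and the E-protein genes. *Id3* (chromosome 4, 135699412 to 135701670, forward strand) was at 276 FPKM in wild-type frontal, 289 FPKM in *Twist1*+/- frontal, 328 FPKM in wild-type parietal and 645 FPKM in labelled *Twist1*+/- parietal bone. The last library was 1.96-fold above wild-type parietal bone, and the other 3 lay within 1.19-fold of each other. *Id1* (chromosome 2, 152561987 to 152563146, forward strand) was at 63.3, 60.8, 111.0 and 124 FPKM in the same order. Both parietal libraries were above both frontal libraries, by 1.75-fold in wild-type and 2.05-fold in *Twist1*+/- mice, and genotype made a difference of at most 1.12-fold in either bone.

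*Id2*, which restrains E-proteins in lymphoid and myeloid cells among others, lies on chromosome 12 from 25778666 to 25780957 on the reverse strand. It was at 77.4 FPKM in wild-type frontal, 72.3 FPKM in *Twist1*+/- frontal, 197 FPKM in wild-type parietal and 93.7 FPKM in labelled *Twist1*+/- parietal bone. Wild-type parietal bone was the single high library, 2.54-fold above wild-type frontal bone and 2.10-fold above labelled *Twist1*+/- parietal bone. *Id4* (chromosome 13, 48356796 to 48359405, forward strand), which is known for its part in neural and glial precursors and in osteoblast differentiation, was the lowest of the family. It was at 10.8, 18.3, 6.29 and 13.9 FPKM in the same order of libraries. Both *Twist1*+/- libraries were above both wild-type libraries, by 1.69-fold in frontal and 2.21-fold in parietal bone, a pattern that no other member showed. With the median of similar GC content subtracted, the parietal log2 ratios were 1.32 for *Id4*, 0.70 for *Id3*, 0.00 for *Id1* and -0.51 for *Id2*, from 1.14, 0.97, 0.16 and -1.07. *Id2* has the lowest GC content of the Id genes (42.4%) and *Id3* the highest (55.6%).

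The promoters of *Id2*, *Id3* and *Id4* are shown because these genes took different directions between the parietal libraries. Each is the run of 250 bases before the RefSeq start in build GRCm38.p6, 5′ to 3′ on the strand of the gene. *Id2* spans chr12:25096093-25096342 on the reverse strand, *Id3* chr4:136143572-136143821 and *Id4* chr13:48260866-48261115 on the forward strand. Capitals mark matches to an E-box (CANNTG) or to GGCGCC, the core of a GC-rich element through which Smad proteins of BMP signalling are known to act on *Id1*. Both motifs are their own reverse complement in form, so a search of one strand covers both.
Id2: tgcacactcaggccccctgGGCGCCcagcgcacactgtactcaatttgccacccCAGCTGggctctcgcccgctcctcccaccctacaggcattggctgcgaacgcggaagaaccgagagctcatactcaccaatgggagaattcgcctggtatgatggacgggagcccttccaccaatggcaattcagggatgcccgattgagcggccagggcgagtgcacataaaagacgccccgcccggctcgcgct
Id3: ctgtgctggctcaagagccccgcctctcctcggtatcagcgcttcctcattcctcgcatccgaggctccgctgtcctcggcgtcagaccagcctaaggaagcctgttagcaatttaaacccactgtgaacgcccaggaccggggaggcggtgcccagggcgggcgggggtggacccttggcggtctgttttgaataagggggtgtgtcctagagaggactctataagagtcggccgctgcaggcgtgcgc
Id4: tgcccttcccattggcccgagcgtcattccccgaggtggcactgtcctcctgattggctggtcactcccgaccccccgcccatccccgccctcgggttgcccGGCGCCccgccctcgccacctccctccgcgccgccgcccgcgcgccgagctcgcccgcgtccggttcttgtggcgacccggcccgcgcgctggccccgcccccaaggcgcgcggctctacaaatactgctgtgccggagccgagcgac

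The *Id2* window holds an E-box, CAGCTG, from -196 to -191 and a GGCGCC from -231 to -226 before the start. The *Id4* window holds a GGCGCC from -148 to -143 and no E-box, and the *Id3* window holds neither. Over 32851 such windows of the RefSeq table, 66.2% held at least 1 E-box and 9.59% at least 1 GGCGCC. Windows were found for 8 of the 10 members, with none for *Id1* or *Tcf4*. Those of *Twist1* and *Twist2* held neither motif, that of *Tcf3* held 1 E-box, and 2 of the 3 alternative starts of *Tcf12* held 1 E-box each. That of *Hand2* held 2 E-boxes and 1 GGCGCC. A match is a description of the letters in the window, and none of these data measured binding.

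The summed FPKM of the 4 Id genes was 427 in wild-type frontal, 441 in *Twist1*+/- frontal, 643 in wild-type parietal and 876 in labelled *Twist1*+/- parietal bone. Divided by the E-protein sum of the same library, this gave 4.19, 4.60, 6.31 and 8.74 in that order. The quotient was higher in both parietal libraries than in both frontal libraries, and higher in the *Twist1*+/- library within each bone. *Id3* carried most of the sum, from 51.1% in wild-type parietal bone to 73.6% in labelled *Twist1*+/- parietal bone, while *Id2* went from 30.6% to 10.7%. Without *Id3* the quotient was 1.49, 1.58, 3.08 and 2.31, so that within parietal bone it was lower in the library labelled *Twist1*+/-. *Twist1* made up 36.6% of the sum of *Twist1* and the E-protein genes in wild-type frontal bone and 24.1% in *Twist1*+/- frontal bone. In wild-type and labelled *Twist1*+/- parietal bone it made up 34.0% and 33.6%. Summed Id FPKM per FPKM of *Twist1* was 7.24 in wild-type frontal, 14.5 in *Twist1*+/- frontal, 12.2 in wild-type parietal and 17.3 in labelled *Twist1*+/- parietal bone. These are ratios of RNA levels and give no measure of protein or of dimers.

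**Figure D2:**
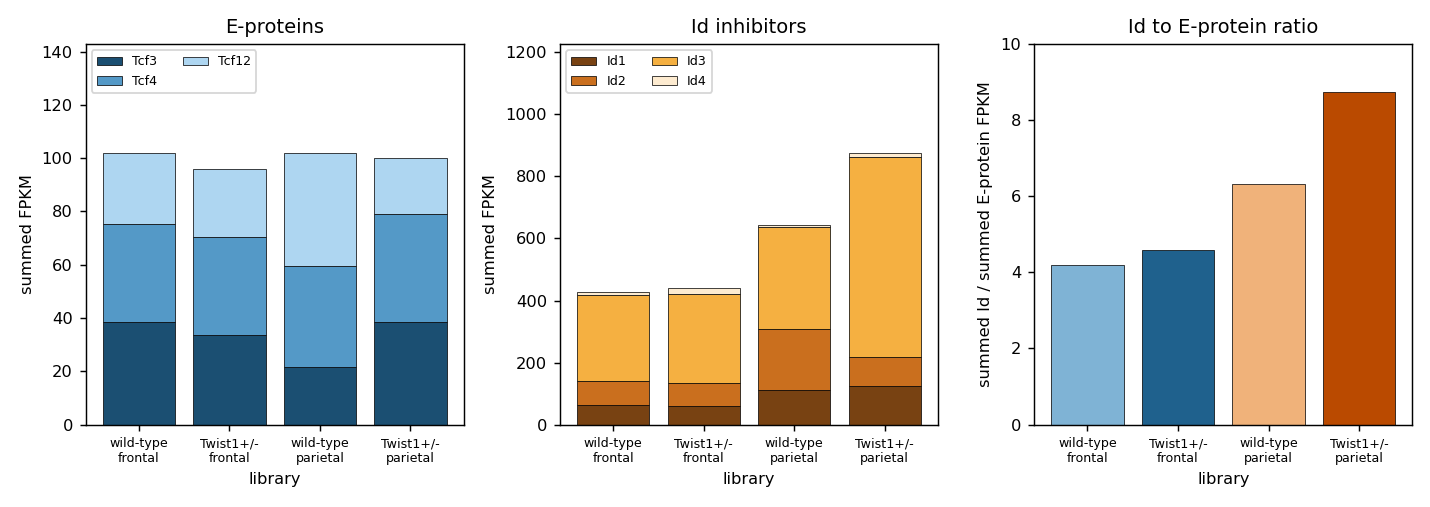
Stacked bars of the summed FPKM of the E-protein genes (left) and of the Id genes (middle), and the quotient of the sums (right), in each of the 4 libraries, with 1 library per bar and no error available. The E-protein sums lie between 95.8 and 102.0, while the Id sums run from 427 to 876 and the quotient from 4.19 to 8.74.

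Between the frontal libraries, 0 of the 9 members at or above 1 FPKM were past 3-fold, where 3.89% of all genes were, and 0 were past 2-fold, where 7.18% of all genes were. The median log2 ratio of the members was -0.06 and that of all genes -0.04. *Twist1* (-0.96), *Id4* (0.76) and *Twist2* (0.56) had the largest ratios, and the other 6 lay between -0.19 and 0.07. The size of the *Twist1* ratio exceeded that of 92.9% of genes, the size of the *Id4* ratio that of 90.0% and the size of the *Twist2* ratio that of 84.3%.

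Between the parietal libraries, 0 members were past 3-fold, against 8.19% of all genes, and 2 of 9 were past 2-fold, *Id4* higher and *Id2* lower in labelled *Twist1*+/- parietal bone, against 20.2% of all genes. The median log2 ratio was 0.16 for the members and -0.06 for all genes. *Tcf12* (-0.99) and *Id3* (0.97) lay just under 2-fold and *Tcf3* was at 0.84. The size of the *Id4* ratio exceeded that of 85.0% of genes and that of the *Id2* ratio 82.8%.

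Between the wild-type bones, 1 of 9 members was past 3-fold, *Twist2*, against 13.3% of all genes. With *Id2* as the other, 2 were past 2-fold, both higher in parietal bone, against 26.9% of all genes. The median log2 ratio was 0.25 for the members and -0.01 for all genes. *Id1* (0.81) and *Tcf12* (0.66) were higher in parietal bone, *Tcf3* (-0.83) and *Id4* (-0.78) were higher in frontal bone, and *Twist1* differed little (-0.17).

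Between labelled *Twist1*+/- parietal and *Twist1*+/- frontal bone, 0 members were past 3-fold, against 4.09% of all genes, and 3 of 9 were past 2-fold, against 11.9% of all genes. These were *Twist2* (1.51), *Id3* (1.16) and *Id1* (1.03), all higher in parietal bone. *Twist1* followed at 0.74, so that in *Twist1*+/- mice it was higher in the parietal library while in wild-type mice the frontal library was slightly the higher. The median log2 ratio was 0.37 for the members and -0.03 for all genes. With the median of similar GC content subtracted, *Twist2* was at 1.23, *Id3* at 0.92, *Id1* at 0.83 and *Twist1* at 0.37. Only *Twist2* then stayed past 2-fold, and *Tcf3* changed sign, from 0.19 to -0.23.

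**Figure D3:**
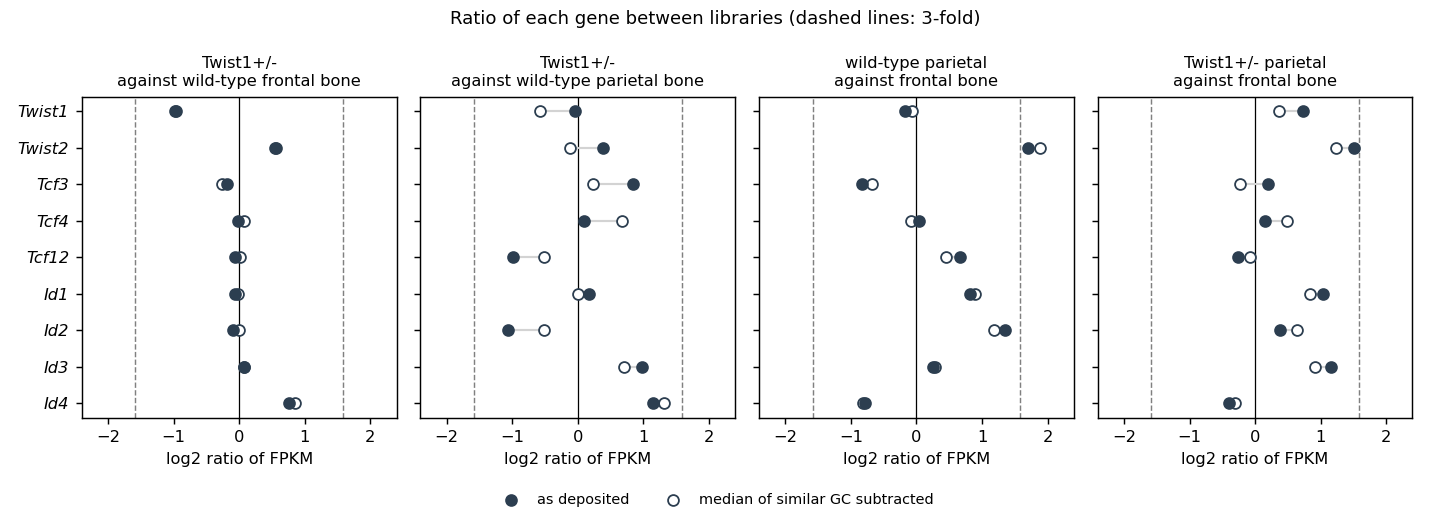
The log2 ratio of FPKM (horizontal axis) of each gene in the 4 comparisons, each panel comparing 1 library with 1 other. Filled points are the ratios as deposited, open points the ratios less the median of genes of similar GC content, and dashed lines mark 3-fold. Filled and open points nearly coincide in the frontal panel and lie furthest apart in the parietal panel, where *Tcf3* goes from 0.84 to 0.22 and *Id2* from -1.07 to -0.51.

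The genotype ratios in the 2 bones come from 4 separate libraries. Their difference, parietal minus frontal on the log2 scale, was 1.02 for *Tcf3*, 0.91 for *Twist1*, 0.90 for *Id3*, -0.93 for *Tcf12* and -0.97 for *Id2*. It was smaller in size for *Id4* (0.39), *Id1* (0.22), *Twist2* (-0.18) and *Tcf4* (0.10). With the median of similar GC content subtracted in each bone, the differences of the first 5 genes kept their signs at 0.49, 0.41, 0.62, -0.53 and -0.50. That of *Twist2* became -0.68, the largest in size of all members. Those of *Tcf4*, *Id4* and *Id1* became 0.60, 0.47 and 0.02. *Tcf3*, *Tcf4* and *Id1* were lower in *Twist1*+/- than in wild-type frontal bone and higher in the parietal comparison, although for *Tcf4* and *Id1* no ratio was larger than 0.16 in size. For *Tcf3*, *Tcf12*, *Id2* and *Id4* the parietal genotype ratio and the wild-type bone ratio had opposite signs. Both of these contain the wild-type parietal library, which was the lowest of the 4 for *Tcf3* and *Id4* and the highest for *Tcf12* and *Id2*.

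**Figure D4:**
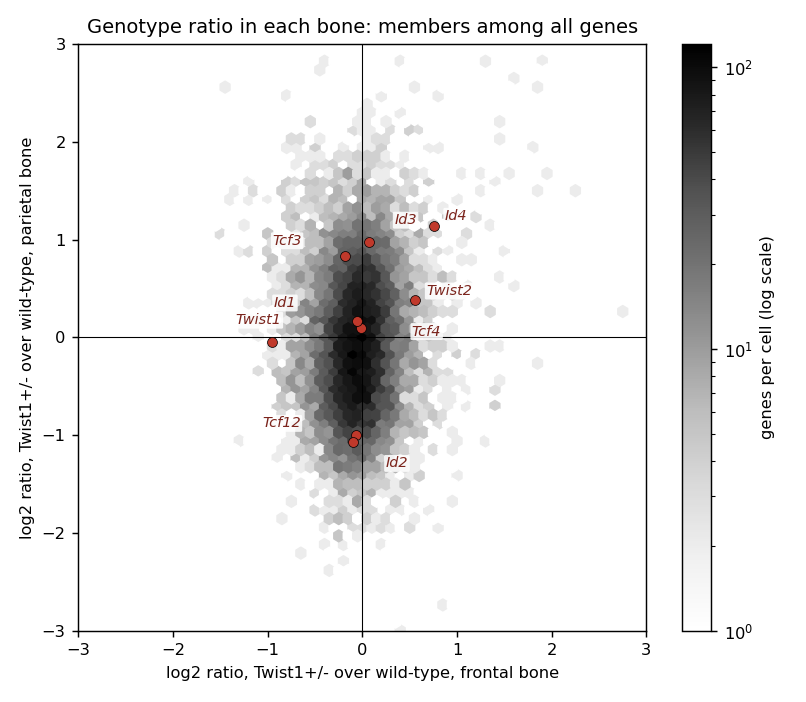
The log2 ratio of *Twist1*+/- to wild-type in frontal bone (horizontal) against that in parietal bone (vertical), with all genes at or above 1 FPKM as grey cells shaded by their number and the 9 members as red points. The axes share no library, *Twist1* lies at -0.96 on the frontal axis and -0.05 on the parietal axis, and *Id2* and *Tcf12* lie near 0 on the frontal axis and near -1 on the parietal axis.

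None of the 75-base windows of the longest coding transcript of any of the 10 genes occurred in a coding transcript of another gene in the mm9 annotation, on either strand. Values are per gene, so that products of 1 gene such as E12 and E47 are not separated.

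Among 40 other class II basic helix-loop-helix genes, which are potential partners of E-proteins, none reached the level of *Twist1* in the same library. The highest were the hematopoietic factors *Tal1*, at 34.7, 20.8, 8.34 and 15.9 FPKM in wild-type frontal, *Twist1*+/- frontal, wild-type parietal and labelled *Twist1*+/- parietal bone, and *Lyl1*, at 27.5, 24.4, 10.5 and 30.4 FPKM. Wild-type parietal bone was the low library for both, and *Tal1* was past 3-fold between the wild-type bones. *Scx*, a factor of tendon, was at 4.94, 5.07, 5.65 and 11.8 FPKM. Between the frontal libraries 6 of 14 genes at or above 1 FPKM were past 3-fold, all higher in *Twist1*+/- bone. They were the muscle gene *Myog*, at 4.93 against 1.28 FPKM, the neuronal genes *Neurod1*, *Neurod4*, *Nhlh1* and *Nhlh2*, and *Ascl3*, and none of them exceeded 5 FPKM. Between the parietal libraries 3 of 15 were higher past 3-fold (*Ascl3*, *Olig2* and *Bhlha15*) and 1 lower (*Neurog2*, listed at 0 in both *Twist1*+/- libraries and at 1.46 FPKM in wild-type parietal bone). Since a listed 0 cannot be read as absence in these data, the *Neurog2* count is uncertain. Between the wild-type bones 4 of 15 were higher in parietal bone (*Tcf15*, *Msc*, *Myf6* and *Neurog2*) and 5 higher in frontal bone (*Tal1*, *Olig1*, *Olig2*, *Bhlha15* and *Ascl3*). Between the *Twist1*+/- bones 0 of 16 were higher in parietal and 3 higher in frontal bone (*Neurod1*, *Neurod4* and *Nhlh2*). The shares of all genes past 3-fold in these 4 comparisons were 3.89%, 8.19%, 13.3% and 4.09%, in the order given.

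Of 12 Hes, Hey and Bhlhe repressor genes, 8 reached 1 FPKM, and the only one past 3-fold in any comparison was *Hes5*, a Notch target, lower in wild-type parietal (0.759 FPKM) than in wild-type frontal bone (4.70 FPKM). *Hes1* was at 21.0, 25.4, 33.2 and 43.7 FPKM and *Hey1* at 19.6, 29.7, 21.6 and 36.5 FPKM in the order given above. Of 14 co-factors of E-protein complexes none was past 3-fold, where 3.89% to 13.3% of all genes were in the 4 comparisons. The highest, *Lmo4*, was at 66.1, 80.2, 94.5 and 114 FPKM. *Lmo2*, which bridges E-protein and Tal1 dimers to Ldb1, was at 78.9, 49.1, 29.3 and 54.7 FPKM, again with wild-type parietal bone as the low library.

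**Figure D5:**
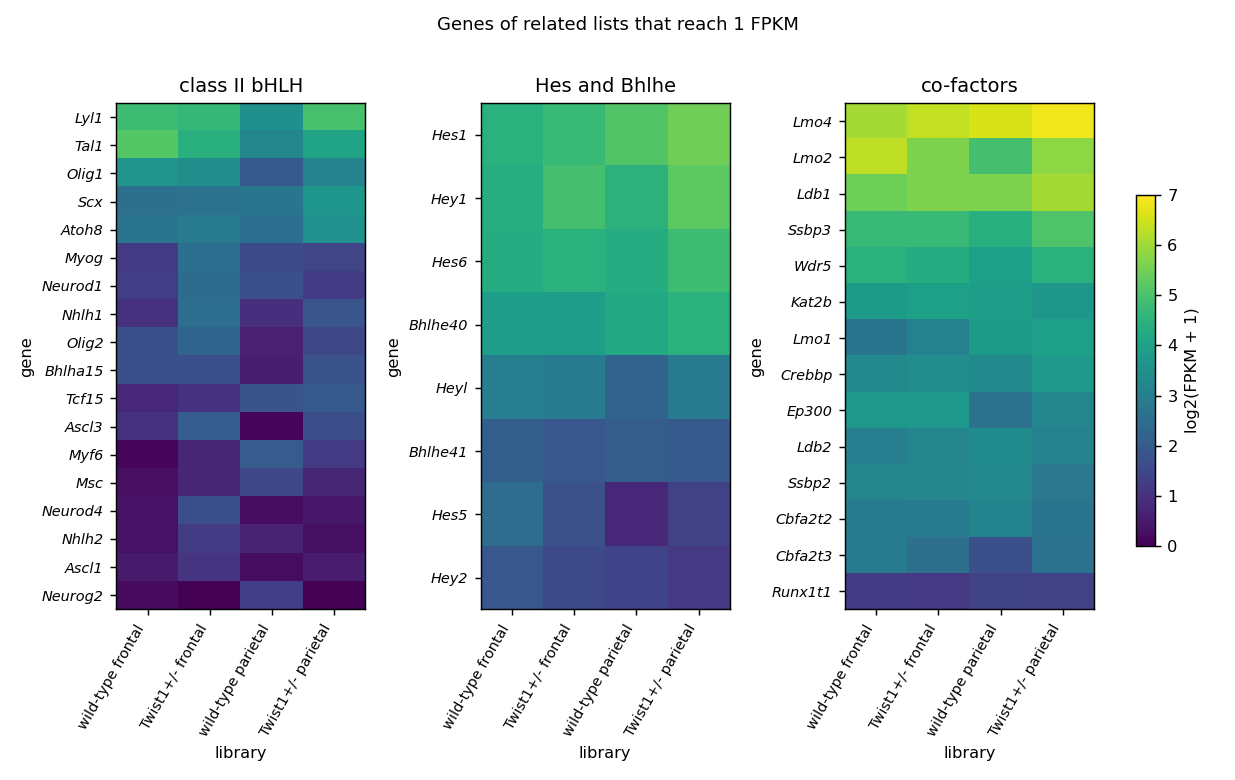
Heat maps of log2(FPKM + 1) for the other class II genes, the Hes and Bhlhe repressors and the co-factors that reach 1 FPKM in at least 1 library, sorted by mean level, with the 4 libraries in columns. *Tal1*, *Lyl1* and *Lmo2* are lowest in wild-type parietal bone, at 8.34, 10.5 and 29.3 FPKM.

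Of 18 genes known as partners or targets of Twist1 in skull and mesenchyme, all reached 1 FPKM. None was past 3-fold between the frontal libraries, against 3.89% of all genes, and *Twist1* itself was 1.94-fold lower there. *Postn*, which encodes the matrix protein periostin, was the most abundant gene of the list to pass 3-fold in any comparison. It was at 396 FPKM in wild-type frontal, 199 FPKM in *Twist1*+/- frontal, 1044 FPKM in wild-type parietal and 283 FPKM in labelled *Twist1*+/- parietal bone, and was past 3-fold between the parietal libraries. The frontal log2 ratio of *Postn* was -0.99, beside -0.96 for *Twist1*. *Cdh1*, which encodes E-cadherin, was past 3-fold between the parietal libraries and between the wild-type bones, with wild-type parietal bone low at 0.265 FPKM. *Cdh1* is also an epithelial marker, a list that was higher in both *Twist1*+/- libraries (values given with the other cell markers). *Msx2* was at 1.52, 1.97, 5.44 and 2.90 FPKM, past 3-fold between the wild-type bones only. *Runx2*, whose product Twist1 is known to restrain, was at 25.3, 28.4, 37.5 and 36.4 FPKM. The median log2 ratio of this list was 0.07 between the frontal libraries, -0.04 between the parietal libraries, 0.54 between the wild-type bones and 0.40 between the *Twist1*+/- bones.

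Of 10 BMP pathway genes that respond with Id genes, none was past 3-fold between genotypes, and *Msx2* was the only one past it between bones. Over all genes, 3.89% were past 3-fold between the frontal and 8.19% between the parietal libraries. *Smad6*, an inhibitory Smad, was at 12.4, 16.2, 11.3 and 29.9 FPKM, and *Nog*, which encodes the BMP antagonist noggin, at 5.22, 7.995, 6.60 and 13.2 FPKM. *Dlx5* was at 25.8, 34.4, 29.8 and 57.4 FPKM. For these 3 genes labelled *Twist1*+/- parietal bone was the high library, as it was for *Id1* and *Id3*. *Smad9* went the other way and was lowest in that library, at 2.23 FPKM, and *Msx2* was highest in wild-type parietal bone. *Bambi*, a decoy receptor, was highest in wild-type parietal bone, at 42.7 FPKM against 20.7 to 31.1 FPKM elsewhere, as was *Id2*. The summed level of the list was 107 FPKM in wild-type frontal, 128 FPKM in *Twist1*+/- frontal, 146 FPKM in wild-type parietal and 197 FPKM in labelled *Twist1*+/- parietal bone, and its median log2 ratio was 0.27, 0.39, 0.27 and 0.56 in the 4 comparisons in the order used above.

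Markers of other cells moved between the libraries as well, and their part in the members' values was not tested. Over all genes, 3.89% were past 3-fold between the frontal libraries, 8.19% between the parietal libraries and 13.3% between the wild-type bones. Of 10 B-lineage markers, 5 were past 3-fold lower in wild-type parietal than in wild-type frontal bone and none was listed at 0. *Igll1* and *Vpreb1* were instead higher in wild-type parietal bone, at 44.0 against 22.9 FPKM and at 21.7 against 11.5 FPKM. The sum of the list was 250 FPKM in wild-type frontal, 239 FPKM in *Twist1*+/- frontal, 130 FPKM in wild-type parietal and 203 FPKM in labelled *Twist1*+/- parietal bone. *Tcf3* was likewise lowest in wild-type parietal bone. Of 10 brain and glia markers, 9 were lower past 3-fold in wild-type parietal than in wild-type frontal bone, with sums of 361, 383, 70.1 and 349 FPKM, beside *Id4* at 10.8, 18.3, 6.29 and 13.9 FPKM. *Mbp* was the largest part of that marker sum in each library, at 108, 208, 34.8 and 270 FPKM. Between the parietal libraries, where *Id4* was 2.21-fold higher in the one labelled *Twist1*+/-, 5 of these markers were past 3-fold higher there, with a median log2 ratio of 1.59. Between the frontal libraries, where *Id4* differed 1.69-fold, 0 were past 3-fold higher and 1 lower, with a median of -0.32. Epithelial markers had the same order of libraries as *Id4*, with sums of 15.0, 59.6, 6.33 and 51.5 FPKM, and 7 of 8 in frontal and 10 of 10 in parietal bone were past 3-fold higher with the *Twist1*+/- label. Of 10 endothelial markers none was past 3-fold in any comparison, and the sums were 189, 203, 206 and 260 FPKM, highest in the library where *Id1* and *Id3* were highest. Single markers differed, and *Pecam1* and *Emcn* were highest in wild-type parietal bone, at 41.9 and 44.4 FPKM. The median log2 ratio of the list was 0.55 between the parietal libraries. It was -0.26 between the wild-type bones, where *Id1* was 1.75-fold higher in parietal bone. Of the 9 myeloid markers found in the files, 2 were past 3-fold lower in wild-type parietal than in wild-type frontal bone, and *Cd68* was higher there (247 against 97.4 FPKM). Of 10 skeletal muscle markers, all were past 3-fold higher in *Twist1*+/- than in wild-type frontal bone, with sums of 117, 1440, 3768 and 1854 FPKM, and *Twist2* was likewise lowest in wild-type frontal bone. Of 10 erythroid markers, 7 were past 3-fold lower in wild-type parietal than in wild-type frontal bone, with a median log2 ratio of -2.34 for the list, and the frontal genotype median was -0.96. The globin genes *Hba-a1* and *Hbb-b1*, listed at 0 in wild-type frontal bone, went the other way and brought the sum to 1467, 29752, 37818 and 46068 FPKM. Without them it was 1467, 734, 597 and 730.2 FPKM. Of 9 chondrocyte markers at or above 1 FPKM, 3 were past 3-fold higher in wild-type parietal than in wild-type frontal bone, and 4 of 9 were past 3-fold lower in labelled *Twist1*+/- parietal than in wild-type parietal bone. Their sum was 132, 115, 110.1 and 118 FPKM, most of it *Col11a1*, and 18.4, 17.4, 47.9 and 32.0 FPKM without that gene.

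Likeness of pattern was measured as the Euclidean distance between centred log2 FPKM values over the 4 libraries. The 3 genes nearest to *Twist1* were *Gadd45a* (0.230), *Serpinh1* (0.274) and *Gas5* (0.276). *Gadd45a* was at 28.2 FPKM in wild-type frontal, 17.9 FPKM in *Twist1*+/- frontal, 30.03 FPKM in wild-type parietal and 27.9 FPKM in labelled *Twist1*+/- parietal bone. *Serpinh1*, which encodes a collagen chaperone, was at 1085, 652, 920.2 and 1107 FPKM. Among the members, the nearest pairs were *Id1* with *Id3* (0.619), *Tcf12* with *Id2* (0.665) and *Tcf3* with *Tcf4* (0.682), while the member nearest to *Twist1* was *Tcf4* (0.702). Over 4 libraries these distances only describe the values given above.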

How the data were processed

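Stranded poly(A) libraries were made from 2 skull bones, frontal and parietal, of each genotype. The authors aligned reads to mm9 with STAR 2.4.2a and computed FPKM per gene with Cuffdiff of Cufflinks 2.2.1, and the deposited tables hold 1 FPKM value per gene and condition. How Cuffdiff scaled the libraries, whether it combined replicates, and the reads behind each value are not given in the sources used here.

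Libraries were grouped by their labels. For each of 4 comparisons the ratio of FPKM was taken over all 23946 genes, and genes at or above 1 FPKM in the higher library were counted past 3-fold or 2-fold. With 1 library per condition no p-value was computed. GC content, positions and shared 75-base windows came from the mm9 GENCODE annotation, and promoters from the RefSeq table for GRCm38.p6. The calculation was checked on simulated data. The members and gene lists were chosen with earlier results of these data known. Named genes are all members, the list genes past 3-fold in any comparison (or the highest gene of a list with none), *Gapdh*, and the genes nearest to *Twist1* or to a member by distance. *Scx*, *Lyl1*, *Hes1*, *Hey1*, *Lmo2*, *Runx2*, *Smad6*, *Nog*, *Dlx5*, *Bambi*, *Cd68*, *Sp7* and *Bglap* fall outside that rule and were chosen after their values were seen. *Ptgds*, *Igf2*, *Col11a1*, *Igll1*, *Vpreb1*, *Smad9* and *Mbp* were likewise singled out after their values were seen, as were *Sparc*, *Spp1*, *Phex*, *Pecam1* and *Emcn*. Other pseudocounts, minimum levels and scalings, and a GC correction, were tried.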

Additional observations from a re-analysis of the deposited data

Results flagged for a closer look

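In 3 genes the genotype ratio had opposite signs in the 2 bones, lower in *Twist1*+/- frontal and higher in labelled *Twist1*+/- parietal bone. With 1 library per condition these differences were not tested. The parietal minus frontal difference of log2 ratios was 1.02 for *Tcf3*. It was 0.10 for *Tcf4* and 0.22 for *Id1*, where each ratio was at most 0.16 in size. With the GC-group median subtracted, the *Tcf3* difference was 0.49, that of *Tcf4* 0.60 and that of *Id1* 0.02. The signs were then no longer opposite for *Tcf4* and *Id1*. They became opposite for *Twist2*, at 0.55 in frontal and -0.13 in parietal bone, and for *Tcf12*, at 0.008 and -0.52.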

How the results depend on the processing

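No paired analysis was possible because each condition has 1 value per gene and the labels carry no replicate numbers. Of 180 recomputed member ratios, 12 changed sign and 3 changed side of 3-fold. Those 3 were all *Twist2* between the wild-type bones, at 0.997 with 1 FPKM added, 1.58 with 0.1 FPKM added and 1.25 with *Gapdh* scaling. Under each of these, and with a minimum of 10 FPKM, the count of members past 3-fold between the wild-type bones was 0. At 2-fold the counts were 2 between the parietal libraries, 2 between the wild-type bones and 3 between the *Twist1*+/- bones. With no minimum level the count was 1 in the frontal genotype comparison and 1 between the *Twist1*+/- bones, in both through *Hand2*. The parietal log2 ratio of *Twist1* was 0.0328 after median scaling and 0.34 after *Gapdh* scaling.

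The quotient of summed Id to summed E-protein FPKM was moved by the choice of genes. In wild-type frontal bone it was 1.49 without *Id3*, 6.71 without *Tcf3*, 6.56 without *Tcf4* and 1.84 from geometric means. In *Twist1*+/- frontal bone these were 1.58, 7.09, 7.44 and 2.199. In wild-type parietal bone it was 3.08 without *Id3*, 10.1 without *Tcf4*, 10.8 without *Tcf12* and 2.51 from geometric means. In labelled *Twist1*+/- parietal bone it was 2.31 without *Id3*, 14.2 without *Tcf3*, 14.7 without *Tcf4* and 3.15 from geometric means. The files give no depth per library, so no counting error can be given.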
